A study of Homo sapiens with 2 samples.

Results

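The transcription factor p53 switches on a set of genes that stop the cell cycle, repair DNA, limit growth signalling or start cell death. The 9 genes described here are 9 of its best known targets: CDKN1A, MDM2, RPS27L, POLH, TP53INP1, GADD45A, BTG2, ZMAT3 and SESN1. Their probe sets were taken by symbol, as every probe set that the platform annotation assigns to one of them. The 9 genes, and the gene lists set beside them below, were chosen with earlier results of these data known. Of the 9, 8 had a probe set, 1 each, among 17687 named genes in all. BTG2 has no named probe set here and was not analysed. The signal was compared between an array of MKN1 cells overexpressing RHOA Y42C and an array of MKN1 cells overexpressing wild-type RHOA.

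MKN1 is an established gastric cancer cell line, and RHOA is a GTPase through which cells regulate actin and contraction. Y42C is a tyrosine-to-cysteine substitution seen in gastric cancer. Both lines carry a pBABE vector for RHOA, went through puromycin selection and were grown in the same serum-containing medium, and whether a line is 1 clone or a pool is not stated. Neither parental nor empty-vector cells are analysed here, so a difference cannot be assigned to one of the lines. Each group has 1 array. The differences below therefore carry no replicate error and no test, and they compare these arrays, not the alleles in general.

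As background, p53 is held at a low level by MDM2, the ubiquitin ligase that marks it for destruction and that is itself a p53 target, which closes a feedback loop. MDM4, a relative of MDM2, masks the activation domain of p53. When DNA is damaged, kinases such as ATM and CHEK2 release p53 from this control. Several of the targets also respond to other factors, so their levels are not a direct reading of p53 activity.

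The 8 measured targets did not differ in 1 direction. CDKN1A was 2.79-fold higher in the Y42C array, while RPS27L was 3.18-fold, POLH 2.71-fold, MDM2 1.88-fold and ZMAT3 1.83-fold lower. TP53INP1 was 1.29-fold higher, and GADD45A (1.14-fold) and SESN1 (1.09-fold) were slightly lower. At a threshold of 2-fold, 1 of 8 was higher, against 7.46% of the 11802 genes above an expression minimum, and 2 of 8 were lower, against 9.80%. In either direction 17.3% of all these genes passed 2-fold. By any size, 2 of 8 were higher and 6 lower, against 45.2% and 54.2% of all genes. In bulk RNA, a difference in every cell and a difference in the share of cells with the transcript cannot be told apart. The members' median difference was -0.53 on the log2 scale, against -0.07 for all genes. It was -0.87 when the array median served as the minimum, a setting that drops TP53INP1.

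The minimum was the 95th percentile of 349 olfactory receptor genes on each array, 5.17 for wild-type and 5.14 for Y42C, since the files give no detection call. All 8 measured targets lay above it on both arrays. Differences are Y42C minus wild-type, and folds take the deposited values as log2. Epithelial keratins were bright on both arrays (KRT8 17.96 and 17.94, KRT18 16.96 and 17.03). CDH1, the epithelial cadherin, was below the minimum on both (3.92 and 3.86). Of 6 named blood cell markers 5 reached the minimum on at least 1 array, led by CD68 (10.66 and 10.15) and CD14 (7.45 and 5.67), and the pan-leukocyte gene PTPRC had 4.61 and 5.39. Of 4 named fibroblast markers 1 did so. The part of such markers in the results was not tested.

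**Figure D1:**
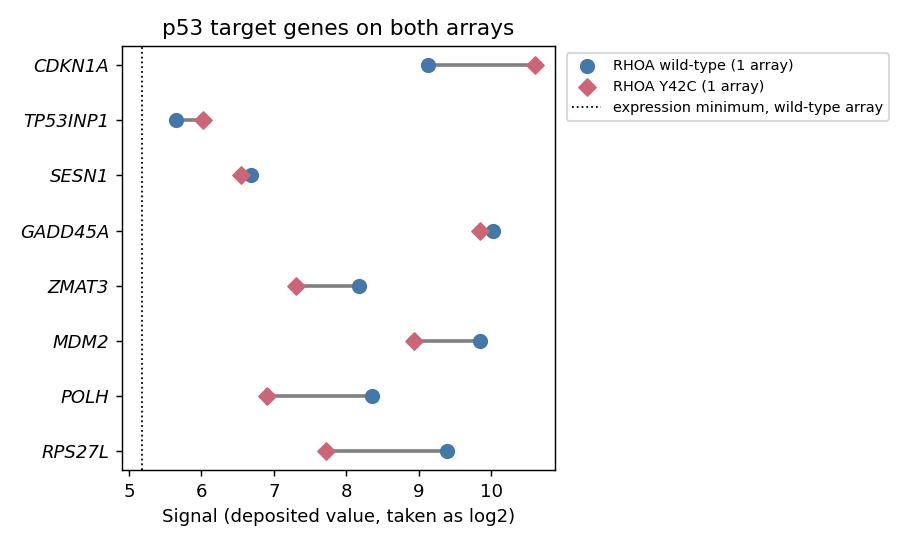
Signal of each measured p53 target gene on the wild-type array (circles) and on the Y42C array (diamonds), on the log2 scale, with 1 array a group and therefore no error bars. CDKN1A has its higher signal in Y42C (9.13 and 10.61), RPS27L, POLH, MDM2 and ZMAT3 have it in wild-type, and the symbols of GADD45A and SESN1 nearly coincide.

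CDKN1A encodes p21, an inhibitor of cyclin-dependent kinases through which p53 halts the cell cycle. Its signal was 9.13 for wild-type and 10.61 for Y42C, a difference of 1.48 on the log2 scale. It ranked 335 from the most positive end of 11802 genes. Among the 1446 genes whose mean signal lay within 0.5 of that of CDKN1A, 8.51% were at least 2-fold higher.

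GADD45A encodes a stress sensor that binds PCNA and kinase complexes. Its signal was 10.03 for wild-type and 9.84 for Y42C. The difference of -0.19 was close to the all-gene median of -0.07. Both genes act on the cell cycle below p53, and of the pair CDKN1A alone passed 2-fold.

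MDM2 had 9.85 on the wild-type array and 8.94 on the Y42C array. The difference of -0.91 fell short of 2-fold. Genes next to MDM2 on its chromosome were lower as well. Of the 8 nearest measured genes above the minimum, 8 were lower, against 54.2% of all genes. Past 2-fold 5 of them were lower, against 9.80% of all genes. MDM1 is among the 5 by its deposited values (5.76 for wild-type and 4.27 for Y42C), the second of which is below the minimum. CPM, the gene that follows MDM2, differed by -1.65, and SLC35E3, the one before MDM2, by -1.12. The part of this neighbourhood in the MDM2 value was not tested.

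RPS27L, a small ribosomal protein relative that p53 induces and that binds MDM2, had the most negative difference of the 8. The wild-type array gave 9.39 and the Y42C array 7.72, a difference of -1.67 that ranked 188 from the most negative end. RPS27, its close paralogue and a core ribosomal protein, differed by 0.13 (15.63 and 15.76). Near-identical genes may share probes, which was not tested.

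POLH encodes DNA polymerase eta, which copies past ultraviolet lesions. The wild-type value was 8.35 and the Y42C value 6.91, and the difference of -1.44 ranked 354 from the most negative end. The genes on either side differed from each other: XPO5 lay at 0.74 and GTPBP2 at -1.16.

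ZMAT3 encodes a zinc finger protein that binds RNA. It had 8.18 for wild-type and 7.31 for Y42C, a difference of -0.87. SESN1, a sestrin that restrains the growth kinase mTORC1, had 6.68 and 6.55. TP53INP1, which supports p53 phosphorylation and autophagy, lay closest to the minimum, with 5.65 for wild-type and 6.02 for Y42C. Its difference of 0.37 lay among 1609 genes of like level, of which 11.5% passed 2-fold. SESN1 and GADD45A were the closest to no difference.

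**Figure D2:**
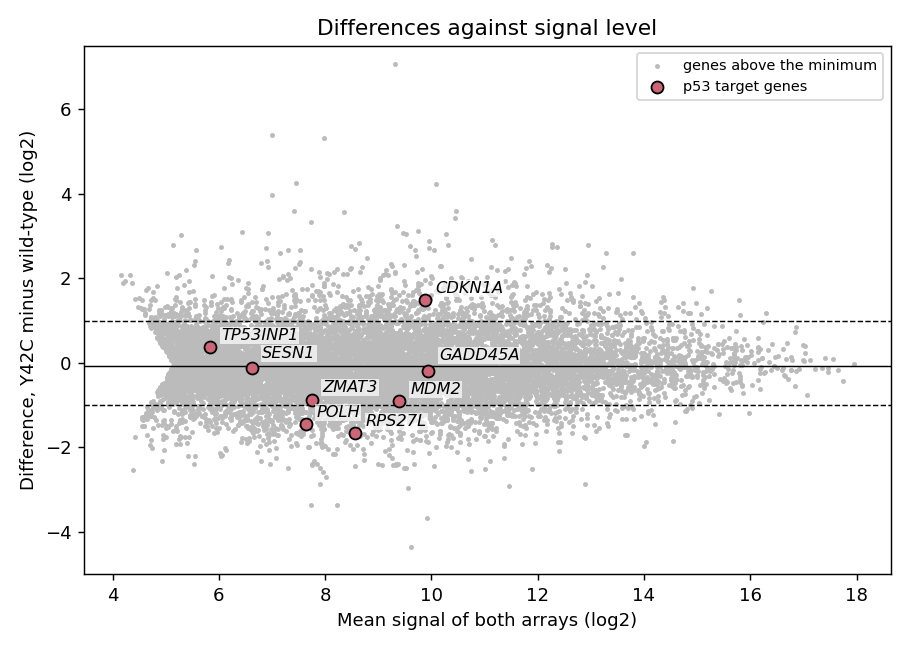
Difference between the arrays (Y42C minus wild-type, log2) against the mean signal of both arrays (log2) for 11802 genes above the minimum (grey) and the 8 measured p53 target genes (red), with dashed lines at 2-fold and a solid line at the all-gene median of -0.07. CDKN1A lies above the upper dashed line, RPS27L and POLH below the lower one, and the other 5 between them.

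Promoter windows are shown for the 3 targets past 2-fold and for MDM2, whose internal promoter is a textbook p53 target. The windows come from RefSeq on GRCh38.p14, run from 250 bases before to 50 bases after an annotated transcript start, and were present for 7 of the 9 genes (13 windows). They are printed in the gene's own direction. Capitals mark the GC box GGGCGG on either strand and, searched after the values were seen, matches to the 20-letter p53 consensus (2 adjoining copies of its 10-letter unit) with at most 3 mismatches. The RPS27L p53 match overlaps a GC box, so its capitals run on. CDKN1A lies at chr6:36678464-36678763 (plus strand), RPS27L at chr15:63157428-63157727 (minus strand), POLH at chr6:43575935-43576234 (plus strand) and the internal MDM2 window at chr12:68808767-68809066 (plus strand).
CDKN1A: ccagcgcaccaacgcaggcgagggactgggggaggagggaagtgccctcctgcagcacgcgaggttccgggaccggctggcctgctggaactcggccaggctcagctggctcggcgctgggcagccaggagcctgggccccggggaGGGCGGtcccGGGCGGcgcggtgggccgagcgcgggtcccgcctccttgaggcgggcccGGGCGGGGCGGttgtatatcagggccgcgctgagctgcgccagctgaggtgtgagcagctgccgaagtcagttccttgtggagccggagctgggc
RPS27L: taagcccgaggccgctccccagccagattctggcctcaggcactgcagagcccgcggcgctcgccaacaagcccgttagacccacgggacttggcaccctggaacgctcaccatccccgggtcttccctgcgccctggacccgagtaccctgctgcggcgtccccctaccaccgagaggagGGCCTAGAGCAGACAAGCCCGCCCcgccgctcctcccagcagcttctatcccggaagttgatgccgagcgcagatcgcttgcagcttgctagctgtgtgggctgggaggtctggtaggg
POLH: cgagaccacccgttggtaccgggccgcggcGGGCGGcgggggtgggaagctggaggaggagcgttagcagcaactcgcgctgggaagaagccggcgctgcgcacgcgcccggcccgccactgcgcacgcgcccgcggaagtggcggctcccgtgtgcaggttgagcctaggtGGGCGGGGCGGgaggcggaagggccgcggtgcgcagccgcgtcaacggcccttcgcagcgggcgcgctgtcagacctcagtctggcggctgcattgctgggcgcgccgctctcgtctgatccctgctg
MDM2: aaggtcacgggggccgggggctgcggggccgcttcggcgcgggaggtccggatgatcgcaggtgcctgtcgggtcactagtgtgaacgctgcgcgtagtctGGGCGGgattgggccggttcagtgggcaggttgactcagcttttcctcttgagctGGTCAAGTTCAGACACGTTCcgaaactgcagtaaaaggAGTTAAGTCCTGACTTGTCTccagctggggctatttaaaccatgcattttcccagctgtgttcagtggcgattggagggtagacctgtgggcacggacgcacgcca

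The internal MDM2 window held 2 p53 matches. The first, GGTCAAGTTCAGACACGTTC, begins at position -94 from the start with 2 mismatches, and the second, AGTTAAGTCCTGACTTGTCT, at -56 with 3. A match with at most 2 mismatches occurs in 0.649% of 35116 windows of this length, and one with at most 3 in 5.20%. RPS27L held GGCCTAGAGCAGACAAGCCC at -69 with 3 mismatches, and its last 10 letters match the unit exactly, which 6.63% of windows do. SESN1 held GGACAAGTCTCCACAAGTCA at -49 with 3 mismatches, in the window chr6:109008939-109009238 on the minus strand. The windows of CDKN1A and POLH had no match within these letters, which says nothing of sites farther away. The GC box, present 4 times in CDKN1A, stood in 12 of 13 windows, some of which overlap. It stood in 45.0% of all windows, 56.9% of those of measured genes and 75.7% of those of the other listed p53 targets. Both CDKN1A, which was higher, and POLH, which was lower, held GC boxes and no p53 match here.

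The paralogues of the targets, several of which are not counted as classical p53 targets, varied from family to family. Of 21 listed, 19 were named and 15 lay above the minimum, of which 1 was higher (6.67%) and 2 were lower (13.3%) by 2-fold or more, near the shares of all genes. The 2 became 1 under quantile normalization and after removal of a trend on level. Their median was 0.12, and 0.03 with no minimum. CDKN1B and CDKN1C, the other inhibitors of the p21 family, were higher like CDKN1A but by less than 2-fold. CDKN1B had 7.14 and 7.84 (1.62-fold), and CDKN1C 6.41 and 7.29 (1.84-fold). MDM4 was 2.97-fold lower, with 9.34 for wild-type and 7.77 for Y42C, so both MDM genes were lower.

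The DNA polymerases POLI and POLK, relatives of POLH, differed by -0.26 and -0.02. GADD45B lay at 0.12 and SESN2 at -0.06, close to GADD45A and SESN1. TP53INP2 was 1.54-fold higher, in the same direction as TP53INP1. Of the ZMAT3 relatives, ZMAT2 lay at 0.02, ZMAT4 was at least 1.05-fold higher and ZMAT5 was at least 1.48-fold lower, its Y42C value being below the minimum. For BTG2, which was not analysed, relatives were measured: BTG3 was 2.08-fold lower and TOB2, a member of the same antiproliferative family, 2.50-fold higher.

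**Figure D3:**
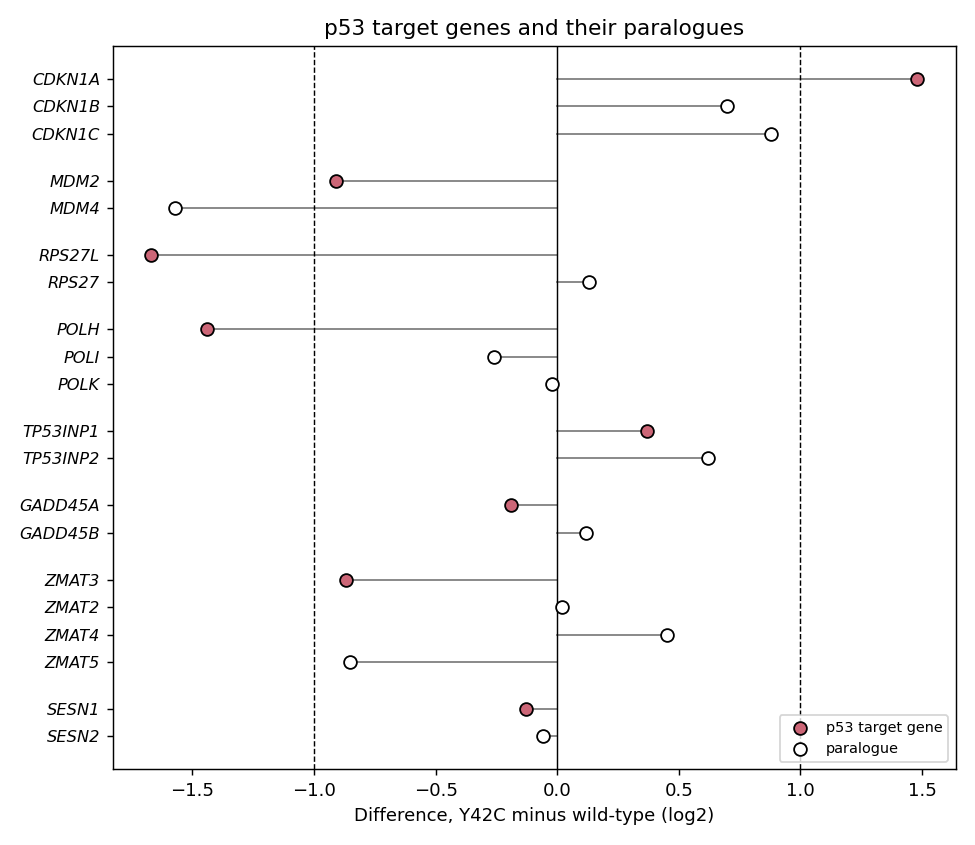
Difference between the arrays (Y42C minus wild-type, log2) for each measured p53 target gene (filled) and its paralogues above the minimum (open), grouped by family, with dashed lines at 2-fold and 1 array a group. The 3 CDKN1 genes lie to the right and both MDM genes to the left, while RPS27L (-1.67) and RPS27 (0.13) lie apart.

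Among other p53 targets, named in 6 lists by role, 75 genes lay above the minimum. Of these, 4 were higher and 9 lower by 2-fold or more, and the median was -0.12. That is 5.33% higher and 12.0% lower, beside 7.46% and 9.80% of all genes. The 96 entries included 86 named here, of which 11 lay below the minimum.

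Targets linked to cell death had 12 of 13 genes lower, where 54.2% of all genes were lower. By 2-fold or more 5 were lower (38.5%, against 9.80% of all genes) and 0 higher (against 7.46%). The 5 became 4 after centring, after quantile normalization or with low values set to the minimum. They became 3 after removal of a trend on level, with the array median as minimum or with a constant of 16 added. PMAIP1, the BH3-only protein NOXA, was 2.62-fold lower (8.41 and 7.02), TRIAP1, a small inhibitor of apoptosis, 2.14-fold and the effector caspase gene CASP6 2.03-fold. CASP1 was at least 2.13-fold and IKBIP at least 1.73-fold lower, their Y42C values being below the minimum. Both are among the 5 by their deposited values. The pore-forming BAX lay at -0.52, and the death receptor genes FAS and TNFRSF10B at -0.06 and -0.28. The decoy receptor TNFRSF10D was the exception above the minimum at 0.40. Of the 16 named genes of this list, 3 lay below the minimum on both arrays and were not counted. By their deposited values PIDD1 (0.47) and TP53AIP1 (0.34) were higher and EDA2R (-0.54) was lower. TRIAP1 acts against cell death, so the genes of this list do not all act in the same sense.

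Targets of DNA repair were lower in 8 of 10 cases by any size, against 54.2% of all genes, but the share past 2-fold (10.0%) was near that of all genes (9.80%); the helicase gene ASCC3 (2.68-fold lower) was the 1 past 2-fold. The nucleotide excision repair genes XPC and DDB2 lay at -0.49 and -0.37, and RRM2B, a ribonucleotide reductase subunit, at 0.16. Genes that act beside POLH in translesion synthesis were lower in 12 of 14 cases by any size, against 54.2% of all genes. Past 2-fold 1 gene was lower (7.14%), a share below the 9.80% of all genes. That gene was UBE2B, a ubiquitin-conjugating enzyme that works with RAD18 (3.27-fold lower), and RAD18 lay at -0.85. REV1, the scaffold polymerase of this pathway, lay at 0.47. The repair and translesion lists share PCNA and REV3L.

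Of the arrest targets, 6 of 9 were higher by any size, where 45.2% of all genes were. Past 2-fold 1 was higher and 1 lower (11.1% each, against 7.46% and 9.80% of all genes). Their median of 0.51 was 0.31 with no minimum and with the array median as minimum. SFN, the 14-3-3 sigma protein that holds cells before mitosis, was 3.41-fold higher (14.04 and 15.81), and PLK2 and TOB1 lay at 0.84 and 0.76. CCNG1, a cyclin that p53 induces, was 2.23-fold lower (11.53 and 10.37). The feedback list had 3 genes above the minimum, of which 1 was higher past 2-fold (33.3%, against 7.46% of all genes) and 0 lower. That gene, TNFAIP8, was 2.08-fold higher, and the count became 0 with a constant of 16 added. The p53 phosphatase gene PPM1D lay at -0.20.

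Of 16 metabolic targets, 1 was higher and 1 lower past 2-fold (6.25% each, below the 7.46% and 9.80% of all genes). ULK1, the kinase that starts autophagy, was 3.48-fold higher (7.90 and 9.70), and CMBL, a hydrolase, 3.05-fold lower. Of the other targets, with 24 genes above the minimum, LAPTM5 was 2.64-fold higher and IER5 3.05-fold lower. No others passed 2-fold, so the shares (4.17% each) were again below those of all genes.

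**Figure D4:**
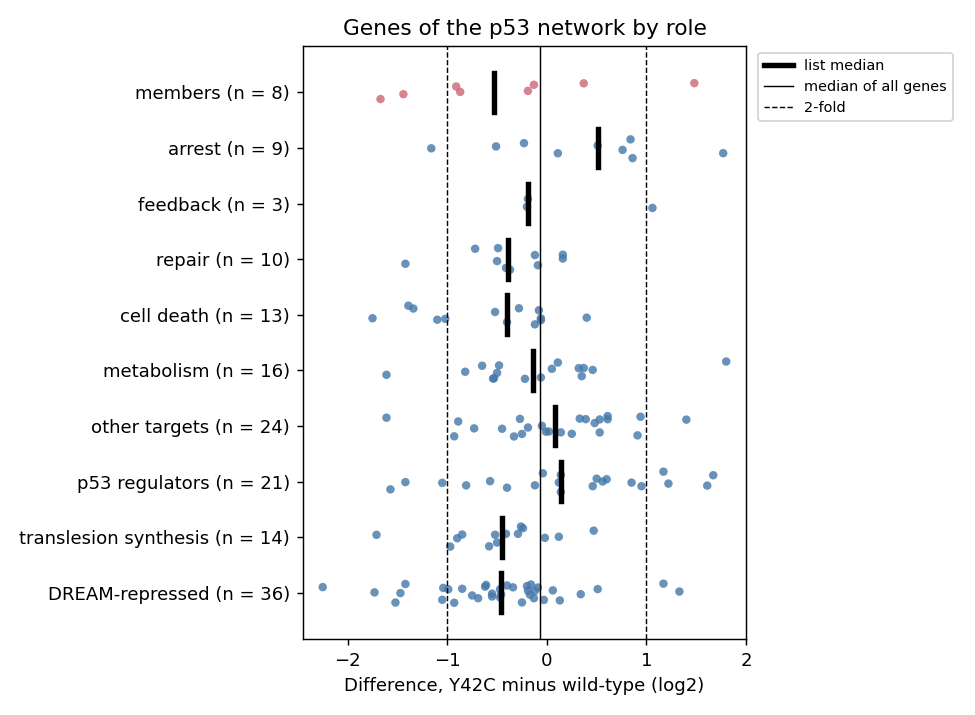
Difference between the arrays (Y42C minus wild-type, log2) for each gene above the minimum in the p53 target lists by role, the p53 regulators, the translesion genes and the cell cycle genes repressed through DREAM, with list medians as thick bars, the all-gene median as a thin line and 2-fold as dashed lines. The cell death list lies almost wholly to the left, the arrest list has the median farthest to the right (0.51), and the regulators spread past 2-fold on both sides.

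Regulators of p53 spread widely. Past 2-fold, 4 of 21 genes above the minimum were higher and 3 lower (19.0% and 14.3%, against 7.46% and 9.80% of all genes), and the median was 0.14. HIPK2, a kinase that phosphorylates p53, was 3.18-fold higher (11.13 and 12.80). All 3 genes of the ASPP family, which bind p53 and steer its choice of targets, were at least 2-fold higher. PPP1R13L, the inhibitory member, had 6.95 and 8.56 (3.05-fold), TP53BP2 9.95 and 11.17 (2.33-fold) and PPP1R13B 6.91 and 8.08 (2.25-fold).

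The checkpoint kinase genes were lower, CHEK1 by 2.68-fold (11.29 and 9.87) and CHEK2 by 2.07-fold (7.03 and 5.98), and ATM lay at -0.81. With MDM4 these make up the 3 lower regulators past 2-fold. USP7, which removes ubiquitin from MDM2 and p53, lay at 0.95, and CDKN2A, whose locus encodes the MDM2 inhibitor ARF, at 0.14. TP73 was below the minimum on both arrays.

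The p21 list held 22 genes above the minimum, for cyclins, cyclin-dependent kinases, other inhibitors of these kinases, PCNA, and RB and E2F proteins. Of them 1 was higher (4.55%) and 2 were lower (9.09%) past 2-fold, shares near or below those of all genes (7.46% and 9.80%). CDK2, a main kinase target of p21, was 2.66-fold lower (11.85 and 10.44) and CCNE2, a cyclin partner of CDK2, 2.71-fold lower. CCND2 was at least 2.39-fold higher. Cell cycle genes known to be lowered through p53, p21 and the DREAM repressor complex were lower in 30 of 36 cases, against 54.2% of all genes. Past 2-fold 7 (19.4%, against 9.80%) were lower, and 5 to 7 under the alternatives that keep this threshold. MCM4 (4.76-fold) and BIRC5 (3.32-fold) led these, and FOXM1 (2.51-fold) and MYBL2 (2.25-fold) were the 2 genes at least 2-fold higher. Both lists hold CDK1, CCNB1 and E2F1, and CHEK1 is also among the p53 regulators. In the p21 list, CDKN1B and CDKN1C are also paralogues, CDKN2A is also a regulator and PCNA is also in the repair and translesion lists. The lists are therefore not separate observations.

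Genes of the GATOR and mTORC1 machinery on which sestrins act gave 1 higher and 3 lower past 2-fold, of 21. These shares were 4.76% and 14.3%, against 7.46% and 9.80% of all genes. NPRL3 was 2.71-fold higher, and SEC13 (2.51-fold), NPRL2 (2.19-fold) and RRAGD (2.03-fold) were lower. Their median of -0.06 matched that of all genes within 0.1 and turned to 0.024 after removal of a trend on level.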

How the data were processed

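Total RNA of 2 MKN1 lines was hybridised to Affymetrix arrays, 1 per line. The authors deposited 1 value per probe set and array, and per the submitters' processing notes used Affymetrix Expression Console, with settings not given in the sources used here. Deposited values (2.23 to 18.16) were taken as log2 signal from their range, and were used without further normalization; array medians were 6.42 and 6.36. Number of arrays, not depth, limits precision.

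The platform annotation names 1 gene for 17709 of 21448 probe sets; 3739 are unnamed here. Probe sets of 1 gene were averaged (20 of 17687 genes). A gene entered when at least 1 array reached its minimum; where the dimmer array lay below it, the fold is a bound against that minimum, while counts use deposited values. Members and lists were chosen with earlier results of these data known. The naming rule covers every member and MDM4, and allows paralogues above the minimum, list genes past 2-fold and up to 3 at each end of a list, of which examples are given; other list genes, the neighbours and the marker genes were named after their values were seen. With 1 array a group no test was run. The code was checked on simulated data. Alternatives were centring, quantile normalization, lowess (span 0.3), 3 other treatments of the minimum, a constant of 16, the brightest probe set, and thresholds of 1.5-fold and 3-fold. Software was NumPy 2.4.6, pandas 2.3.3, matplotlib 3.10.9, statsmodels 0.14.6 and Python 3.11.15.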

Additional observations from a re-analysis of the deposited data

How the results depend on the processing

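All 8 members kept their direction under the alternatives that gave them a value. Between alternatives the CDKN1A difference ran from 1.45 to 1.60, that of RPS27L from -1.67 to -1.54, that of POLH from -1.44 to -1.31 and that of MDM2 from -0.91 to -0.79. The members' median was -0.41 after removal of a trend on level and -0.87 with the array median as minimum; the cause was not tested for the first, and the second drops TP53INP1. At 1.5-fold, 1 of 8 members was higher and 4 were lower, and of the 75 other p53 targets 11 were higher and 15 lower. Of all 11802 genes, 2106 were higher and 2758 lower at 1.5-fold. At 3-fold, 0 members were higher and 1 lower, and of the other targets 2 were higher and 3 lower. Of all genes, 260 were higher and 235 lower at 3-fold. The changes in these counts follow from the threshold itself. At 2-fold the other targets gave 3 to 5 higher and 7 to 9 lower. With the trend on level removed, the median of the sestrin-related list turned to 0.024 and that of all genes to 0.0043. No paired analysis was possible because each group has 1 array. Signal near the minimum limits TP53INP1 most.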

Other observations

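MDM2 lay in a run of 9 neighbouring genes above the minimum that were all lower in the Y42C array by at least 0.5 on the log2 scale. In chromosomal order they were MDM1 (-1.49), RAP1B (-0.77), NUP107 (-0.94), SLC35E3 (-1.12), MDM2 (-0.91), CPM (-1.65), CPSF6 (-0.51), YEATS4 (-1.28) and CCT2 (-1.01), with a median of -1.01. The MDM1 difference, and with it the median, rests on a deposited Y42C signal of 4.27, below the minimum. The next genes on either side of the run, DYRK2 (-0.17) and RAB3IP (0.49), lay outside it. The order comes from a RefSeq table on GRCh38.p14, and genes below the minimum were passed over. The run was noticed after the values were seen, among the surroundings of 8 targets, and its cause was not tested. Among the 5 measured genes on each side of the other targets, the median ran from -0.51 around CDKN1A to 0.09 around POLH, and the surroundings of RPS27L held 0 genes past 2-fold.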
